A study of Mus musculus with 2 samples.

Results

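Keratins are the filament proteins of epithelial cells, and the 49 keratin genes measured here are every gene symbol made of Krt and a number, with or without a letter, that had more than 3 counts in at least 1 of the libraries. The table held 52 such symbols among 24421 gene symbols, and 16255 of all symbols passed the same limit. Of the 49 keratin genes, 26 encode type I and 23 encode type II keratins. The members just inside and outside the limit were Krt42, with 7 counts in control and 3 in stretched skin, and the symbols left out, Krt13 (3 and 0), Krt9 (3 and 0) and Krt76 (0 and 2). The keratin-associated proteins (Krtap) were not members.

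The RNA came from whole-layer back skin of wild type C57BL6/J mice and was sequenced as 1 library of skin stretched at a labelled strain of 33% for 5 days and 1 library of day 5 control skin without strain. In the methods this is the initial strain, which was then raised daily. The methods describe the animals as female, 8 weeks old and in telogen, the resting phase of the hair cycle. Both groups share the mouse strain, the genotype and the harvest day. The device was an external one fixed on the back. The methods call the sequenced control non-stretched skin and do not say whether it carried the device. Differences due to the device and to the strain therefore cannot be told apart. There were no replicates, so the differences below carry no p-value and cannot be set against a spread between animals, and every interval covers counting error only.

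A keratin filament is built from pairs of a type I (acidic) and a type II (basic) chain, and each epithelial layer makes its own set. Basal epidermal cells make Krt5 and Krt14 and switch to Krt1 and Krt10 as they move up, while Krt6a, Krt6b, Krt16 and Krt17 are known as the stress keratins of wounded or proliferating epidermis and are also made in parts of the follicle. In a growing follicle, matrix cells around the dermal papilla give rise to the inner root sheath, which makes Krt25 to Krt28 and Krt71 to Krt73, and to the hair shaft, whose hard keratins Krt31 to Krt40 and Krt81 to Krt86 are cross-linked with keratin-associated proteins. A resting follicle keeps a finished club hair and has no active matrix.

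The authors deposited raw read counts, which summed to 14152379 in control and 11648655 in stretched skin. Levels are given as counts, as CPM (the count scaled to the library total) or, between genes, as FPKM (CPM per kilobase of exon). A fold change is the log2 ratio of CPM, stretched to control, with an exact 95% Clopper-Pearson interval, and 3 counts corresponded to 0.212 CPM in control and 0.258 CPM in stretched skin. The median log2 ratio of the 16255 genes was -0.12. A gene was called upregulated or downregulated by the rule in the methods, a product of the FPKM values above 10 and a ratio of at least 2 or at most 0.5, here with 1 added to each FPKM. Skin was recognizable in both libraries from its fibroblast, adipocyte, sebocyte and keratinocyte markers. The telogen stage given in the methods went against the control library, which held 335 counts of Shh, 592 of Foxn1 and 60382 of Krt71, genes of the hair matrix and inner root sheath picked for this check after their values were seen, so the libraries are called by their treatment and no hair cycle stage is given to them. Stretched skin held 114, 155 and 8796 counts of the same genes.

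The keratin genes of the hair shaft and the root sheath were lower in stretched skin, all 24 of them, while the keratins of the epidermis held their share of the library. Together the hair shaft and root sheath genes had 163620 counts in control and 23607 in stretched skin, a ratio 5.70 times lower (log2 -2.51, interval -2.53 to -2.49). They made up 37.4% of all keratin counts in control skin (interval 37.3% to 37.6%) and 9.35% in stretched skin (9.24% to 9.46%). The 25 other keratin genes had 273467 and 228868 counts, a log2 ratio of 0.02 (interval 0.02 to 0.03). All 49 genes summed to 3.09% of the control library (Clopper-Pearson interval 3.08% to 3.10%) and 2.17% of the stretched library (2.16% to 2.18%). In whole skin, fewer cells of a type and less RNA per cell cannot be told apart.

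By the rule of the methods with 1 added to each FPKM, 38 of the 49 genes passed the filter on low values. Of these, 22 were downregulated and 4 upregulated. Over all genes past the filter, 2.44% were downregulated and 2.61% upregulated. The 22 downregulated genes were all of the hair shaft or the root sheath. The upregulated genes were Krt2, Krt16, Krt6a and Krt6b. Without the filter or the added FPKM, 25 keratin genes had a ratio of CPM of 0.5 or less, against 5.47% of all genes, and 5 had a ratio of 2 or more, against 6.32%. The counting interval lay wholly below 0 for 31 keratin genes (33.5% of all genes) and wholly above 0 for 10 (18.1% of all genes), and it included 0 for 8.

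**Figure D1:**
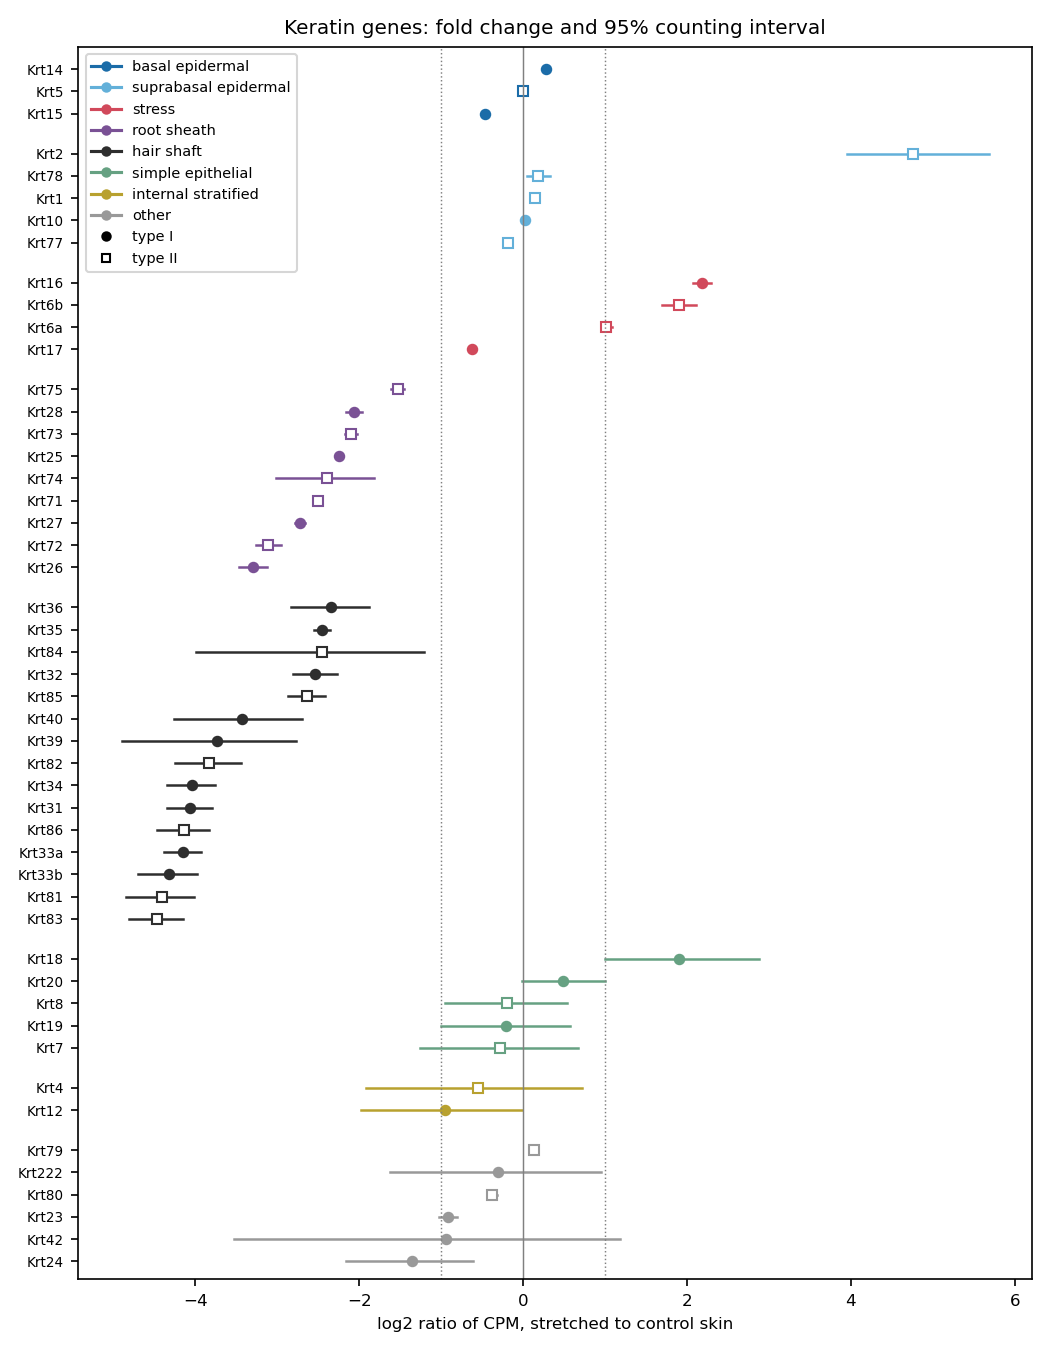
Log2 ratio of CPM in stretched to control skin for each of the 49 keratin genes, grouped by compartment, with exact 95% counting intervals as horizontal lines. Filled circles are type I and open squares type II, and dotted lines mark ratios of 0.5 and 2. All hair shaft and root sheath genes lie to the left of -1.5, and Krt2 stands farthest to the right at 4.76.

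The hair shaft keratins had the lowest sum of the 8 compartments, relative to control. These are the hard keratins of the matrix, cuticle and cortex of the hair fiber. The 15 genes summed to 25609 counts in control and 2100 in stretched skin, a ratio of CPM of 0.0996 (log2 -3.33, interval -3.39 to -3.26). Their share went from 0.181% (interval 0.179% to 0.183%) to 0.0180% (0.0173% to 0.0188%). All 15 were lower, from -2.34 for Krt36 to -4.47 for Krt83, around a median of -3.83. Of the 15, 13 were downregulated by the rule of the methods. Krt84, a minor type II hair keratin, had 40 and 6 counts and did not pass the filter, and Krt85 had no exon length in the annotation used here.

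Within the shaft, the genes of the layers differed in size of change. The layer groups were drawn up after the values were seen, so they are a description. Krt35 and Krt85, the first hair keratins made as cells leave the matrix, had 6503 and 1352 counts in control skin and 977 and 179 in stretched skin. Their log2 ratios were -2.45 (interval -2.55 to -2.36) for Krt35 and -2.64 (interval -2.87 to -2.41) for Krt85. Krt32, Krt82 and Krt40, keratins of the hair cuticle, summed to 2104 and 204 counts (log2 -3.09, interval -3.30 to -2.88). The 8 cortex genes, which fill the body of the fiber and are made later, summed to 15464 and 725 counts (log2 -4.13, interval -4.24 to -4.03), 17.6 times lower. The intervals of the early, cuticle and cortex sums did not overlap.

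Most single cortex genes had similar ratios. Krt33a, the cortex gene with the most counts, had 3794 counts in control and 176 in stretched skin (log2 -4.15, interval -4.38 to -3.93). Krt31 had 2351 and 116 counts (-4.06, interval -4.34 to -3.79), Krt34 had 2078 and 104 (-4.04, interval -4.34 to -3.76) and Krt33b had 1653 and 68 (-4.32, interval -4.69 to -3.97). Among the type II partners, Krt86 had 1820 and 85 counts (-4.14, interval -4.47 to -3.83) and Krt81 had 1343 and 52 (-4.41, interval -4.84 to -4.01). The counting intervals of these 6 genes overlap one another. Krt36, with 271 and 44 counts, stood apart at -2.34 (interval -2.84 to -1.88), outside their range. Among the cuticle genes, Krt32 had 929 and 132 counts (-2.53), Krt82 had 966 and 56 (-3.83) and Krt40 had 209 and 16 (-3.43). Krt39, a type I hair keratin present at a low level, had 146 and 9 counts (-3.74, interval -4.90 to -2.77).

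Several of these genes are near-copies of each other, and the share of a gene's 76-base stretches (the read length) that occur in another gene was 33.2% for Krt86, 30.5% for Krt81, 24.4% for Krt34, 21.8% for Krt83, 18.7% for Krt31, 11.6% for Krt33a and 10.6% for Krt33b. How the counting treated reads that fit more than 1 gene is not given in the sources used here, so counts may have moved among these 7 genes. The 8 other hair shaft genes (each under 10%, with no value for Krt85) were also lower, with a log2 ratio of -2.59 for their sum (interval -2.68 to -2.51). All 7 genes are cortex genes, and the remaining cortex gene is Krt36 at -2.34, so the lower sum of the cortex rests on genes that share stretches. Among the other genes that share none or little, Krt84 and Krt32 were at -2.46 and -2.53, and Krt40, Krt39 and Krt82 at -3.43, -3.74 and -3.83. The intervals of Krt84, Krt40, Krt39 and Krt82 overlap those of Krt31 and Krt34, and that of Krt32 does not. The part of shared reads in the order of the layers was not tested. The symbol Krt83 needs care too. A second type II hair keratin gene stands in the table as 5430421N21Rik, with 2058 and 78 counts (-4.44, interval -4.79 to -4.11), and that gene is called Krt83 in today's annotation. The table's Krt83, with 2154 and 80 counts (-4.47, interval -4.81 to -4.15), was therefore taken as the gene now called Krt87. Another, 4732456N10Rik (now Krt90), had 85 and 13 counts (-2.43). Neither is among the 49.

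The root sheath keratins made the largest difference in share of the library among the 8 compartments. The 9 genes summed to 138011 counts in control and 21507 in stretched skin, 5.28 times lower (log2 -2.40, interval -2.42 to -2.38). They made up 0.975% of the control library (interval 0.970% to 0.980%) and 0.185% of the stretched library (0.182% to 0.187%). All 9 were downregulated, between -1.53 and -3.29.

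Krt71, the main type II keratin of all 3 layers of the inner root sheath, had 60382 counts in control and 8796 in stretched skin (log2 -2.50, interval -2.53 to -2.47). In control skin its level per length, 1952 FPKM, was close to that of Krt5 at 1969 FPKM, and in stretched skin it was 345 FPKM against 1977 FPKM for Krt5. The type I partners Krt25 and Krt27 had 29044 and 21073 counts in control and 5035 and 2629 in stretched skin, log2 ratios of -2.25 (interval -2.29 to -2.20) and -2.72 (interval -2.78 to -2.66). Krt28, also of the inner root sheath, had 5307 and 1050 counts (-2.06, interval -2.15 to -1.96).

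The cuticle of the inner root sheath, the layer that interlocks with the hair cuticle, is marked by Krt26, Krt72 and Krt73. Krt26 had 3522 and 296 counts and the largest change of the root sheath (-3.29, interval -3.47 to -3.12). Krt72 came next with 3968 and 379 counts (-3.11, interval -3.26 to -2.95), and its interval overlaps that of Krt26. Krt73 had 9156 and 1760 counts (-2.10, interval -2.17 to -2.02). Krt74, annotated as a pseudogene in the mouse, had 185 and 29 counts (-2.39), and its interval of -3.01 to -1.82 overlaps that of Krt72. The smallest change was that of Krt75, the keratin of the companion layer between the inner and outer root sheath, with 5374 and 1533 counts (-1.53, interval -1.61 to -1.45). Its interval did not overlap that of any other root sheath gene. The root sheath genes share at most 4.27% of their stretches with another gene.

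**Figure D2:**
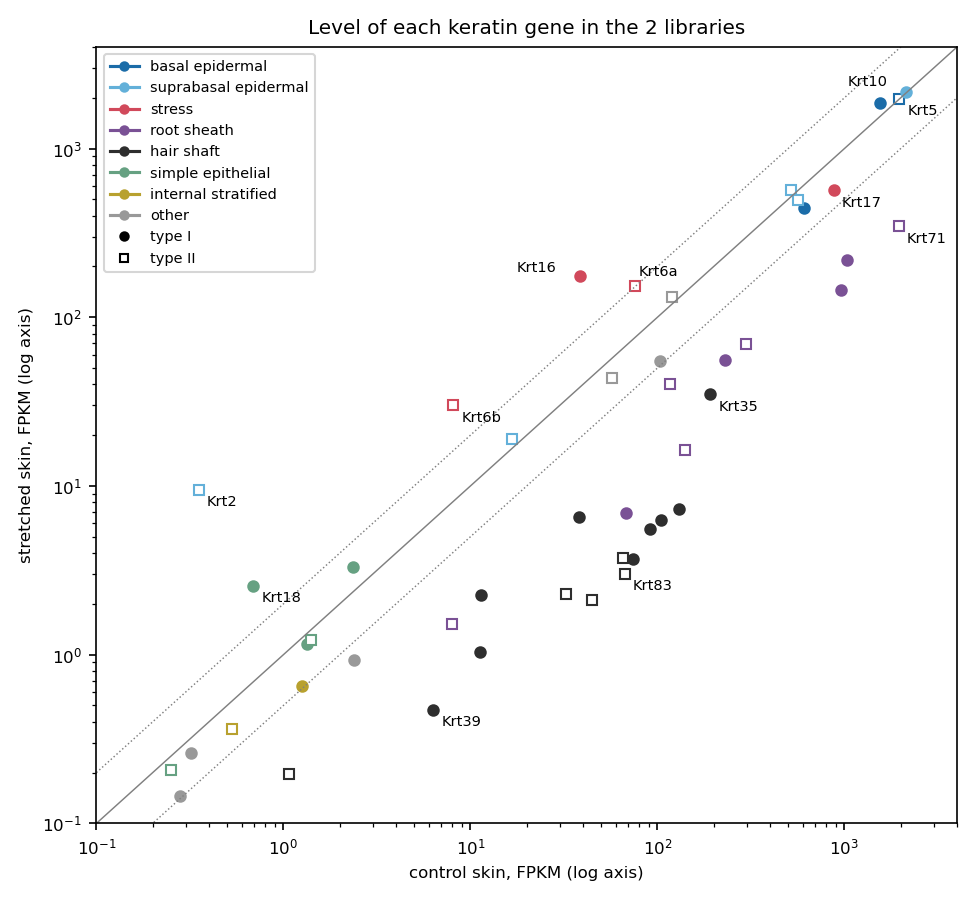
Level of each keratin gene with an exon length (Krt85 had none) in control skin (x axis) and stretched skin (y axis), in FPKM on log axes. The solid line marks equal levels and the dotted lines 2-fold differences. Krt71 moves from the level of Krt5 and Krt10 in control skin to 345 FPKM in stretched skin, while Krt5, Krt10 and Krt14 stay on or near the line.

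Because the hair shaft and sheath genes moved together, the bases before their start sites are shown for the type I and type II gene with the most counts that had a promoter in the RefSeq table used (GRCm38.p6), beside the suprabasal genes Krt10 and Krt77, which were not called. Of the 49 genes, 32 had a promoter there, including 9 of the hair shaft, 8 of the root sheath, 4 suprabasal and 2 basal. Each sequence holds the 250 bases before the start, 5′ to 3′ on the strand of the gene. Capitals mark 3 motifs on either strand. The first is the TATA box, where the general transcription machinery binds, searched as TATAAA. The second is the CCAAT box, an element of many promoters that lies further upstream. The third is the core of the sites bound by LEF1 and TCF proteins, searched as CTTTGA.
Krt31 promoter, chr11:100050552-100050801, minus strand: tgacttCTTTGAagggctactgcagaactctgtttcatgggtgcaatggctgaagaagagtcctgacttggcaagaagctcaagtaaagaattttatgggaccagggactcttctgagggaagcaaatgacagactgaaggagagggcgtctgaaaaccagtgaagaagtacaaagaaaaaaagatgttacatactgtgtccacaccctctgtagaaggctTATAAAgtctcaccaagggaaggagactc
Krt82 promoter, chr15:101550660-101550909, minus strand: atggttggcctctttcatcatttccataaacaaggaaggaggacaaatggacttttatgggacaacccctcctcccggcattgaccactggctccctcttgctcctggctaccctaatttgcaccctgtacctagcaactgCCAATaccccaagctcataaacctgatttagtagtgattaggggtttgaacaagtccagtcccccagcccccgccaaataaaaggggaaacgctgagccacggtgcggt
Krt25 promoter, chr11:99322952-99323201, minus strand: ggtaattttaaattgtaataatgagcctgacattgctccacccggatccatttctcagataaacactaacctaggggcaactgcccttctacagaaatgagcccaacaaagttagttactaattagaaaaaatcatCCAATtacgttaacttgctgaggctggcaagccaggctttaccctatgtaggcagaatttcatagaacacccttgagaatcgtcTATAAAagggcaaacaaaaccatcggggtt
Krt71 promoter, chr15:101743098-101743347, minus strand: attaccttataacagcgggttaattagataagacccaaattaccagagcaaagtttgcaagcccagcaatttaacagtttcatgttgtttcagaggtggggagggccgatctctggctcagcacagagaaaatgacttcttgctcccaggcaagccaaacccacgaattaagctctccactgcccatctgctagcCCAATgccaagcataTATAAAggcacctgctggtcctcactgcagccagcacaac
Krt10 promoter, chr11:99389365-99389614, minus strand: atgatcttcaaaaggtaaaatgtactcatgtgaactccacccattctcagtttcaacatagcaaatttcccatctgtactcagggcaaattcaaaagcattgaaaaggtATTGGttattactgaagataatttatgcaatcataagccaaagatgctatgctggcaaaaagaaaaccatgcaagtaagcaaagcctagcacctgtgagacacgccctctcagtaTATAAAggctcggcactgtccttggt
Krt77 promoter, chr15:101869706-101869955, minus strand: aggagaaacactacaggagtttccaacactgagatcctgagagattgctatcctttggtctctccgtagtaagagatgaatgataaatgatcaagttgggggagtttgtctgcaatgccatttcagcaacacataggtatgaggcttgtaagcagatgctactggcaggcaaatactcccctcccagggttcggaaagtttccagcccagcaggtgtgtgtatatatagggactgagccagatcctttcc

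The motifs were searched on both strands in the window from 250 bases before to 50 after the start. The TATA box was found in 18 of the 32 keratin promoters and in 13.6% of all 32851 promoters. By group it was in 7 of the 8 root sheath, 6 of the 9 hair shaft, 1 of the 4 suprabasal and 0 of the 2 basal promoters. In the sequences above it starts 29 bases before the Krt31 start, 30 before Krt25, 40 before Krt71 and 26 before Krt10. Not all matches lie there, and the only one begins at base -203 in Krt72, -206 in Krt84 and -15 in Krt27, counted from the start. The CCAAT box was found in 13 of the 32 keratin promoters against 37.4% of all promoters. The LEF1/TCF core was found in 5 of the 9 hair shaft promoters (Krt31, Krt32, Krt33b, Krt34 and Krt39), in Krt28 and Krt2, and in 16.0% of all promoters. In each of the 5 hair shaft promoters a core was followed by AG, and CTTTGAAG, which contains the core, was found in 5 of the 32 keratin promoters and 1.66% of all. The pattern was picked out after it was seen. TGANTCA, an AP-1 site (N is any base), was found in 0 of the 32 and in 7.81% of all promoters. The 32 do not include Krt16, Krt17, Krt6a and Krt6b, so no stress keratin was searched. A match is a run of letters and not a known binding site, and no match says only that the letters are not in this window.

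In 4 neighboring type I hair genes the core lies at nearly the same distance from the start, beginning at base -247 (Krt33b and Krt32), -240 (Krt34) and -244 (Krt31), where -1 is the last base before it. Krt34 has a second core at -133, and in Krt39 the core lies at -18. The first 40 bases of the windows of the 4 genes, from base -250 to base -211, are shown with the core in capitals. Krt31 and Krt34 are near-copies, sharing stretches of their exons as given above, so the 4 are not independent.
Krt33b window, chr11:100030079-100030118, minus strand: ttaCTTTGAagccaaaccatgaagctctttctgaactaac
Krt34 window, chr11:100041765-100041804, minus strand: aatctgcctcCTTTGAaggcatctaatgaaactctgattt
Krt31 window, chr11:100050762-100050801, minus strand: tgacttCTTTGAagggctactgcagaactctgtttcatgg
Krt32 window, chr11:100088480-100088519, minus strand: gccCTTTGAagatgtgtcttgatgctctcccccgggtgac

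The genes that act with the hair keratins were lower too. A list of 10 hair matrix regulators, which holds transcription factors of the matrix and the cortex, the ligand Shh and the enzymes that modify hair and sheath proteins, summed to 994 CPM in control and 300 CPM in stretched skin (log2 -1.73, interval -1.78 to -1.67). All 10 had intervals below 0, with a median of -1.79, and 9 were downregulated. Lef1, named here because its protein binds the LEF1/TCF core, had 783 counts in control and 185 in stretched skin (-1.80, interval -2.04 to -1.57). Hoxc13, a regulator of hair keratin genes, had 1341 and 301 counts (-1.87, interval -2.06 to -1.69). Padi3, which citrullinates the sheath protein trichohyalin, had 3281 and 482 counts (-2.49, interval -2.63 to -2.35). Dlx3, a transcription factor of the matrix and cortex, had 3081 and 734 counts (-1.79, interval -1.91 to -1.67). Gata3, which acts in the inner root sheath and is also made in the epidermis and by immune cells, had 2055 and 1042 counts (-0.70, interval -0.81 to -0.59) and was not called.

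Partners of keratin filaments were mostly lower by less than 2-fold. Of the 16 genes on the list (desmosome, plakin and filament-aggregating proteins), 15 were measured, 12 had an interval below 0, 2 above and 1 included 0, and the median log2 ratio was -0.41. The sum, 172168 counts in control skin of which Tchh held 61054, had a log2 ratio of -0.89 (interval -0.90 to -0.88). Only Tchh and Tchhl1 were downregulated. Tchh encodes trichohyalin, the protein that hardens the inner root sheath, and had 61054 counts in control and 6885 in stretched skin (-2.87, interval -2.90 to -2.83). Tchhl1 had 2509 and 172 counts (-3.59, interval -3.82 to -3.36). Dsp, the desmosomal plakin desmoplakin, had 32858 and 17039 counts (-0.67). The desmosomal plaque genes Pkp1 and Jup had log2 ratios of -0.20 and -0.08. The keratin-associated protein genes, 51 of which were above the limit, summed to 27191 counts in control and 961 in stretched skin.

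Markers of other cells moved in both directions beside these changes, and their part in the keratin results was not tested. The 7 melanocyte genes, which color the growing hair, went from 405 to 166 CPM with all 7 lower (median log2 -1.53). The 6 skeletal muscle genes went from 24804 to 17296 CPM, from -4.57 (Myh4) to 1.10 (Myh1) for single genes. The 5 adipocyte genes went from 1189 to 753 CPM, all lower. The 6 fibroblast genes went from 40931 to 77054 CPM and the 7 macrophage genes from 571 to 1339 CPM, all with intervals above 0. The 5 sebocyte genes were mixed (2073 and 1740 CPM, median -0.02). The 10 keratinocyte genes that are no keratins went from 5293 to 4757 CPM (log2 -0.15, interval -0.17 to -0.14), with 3 intervals above 0, 6 below and no gene called. Relative to the sum of those keratinocyte genes, the log2 ratio was -3.17 for the hair shaft and -2.25 for the root sheath keratins.

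**Figure D3:**
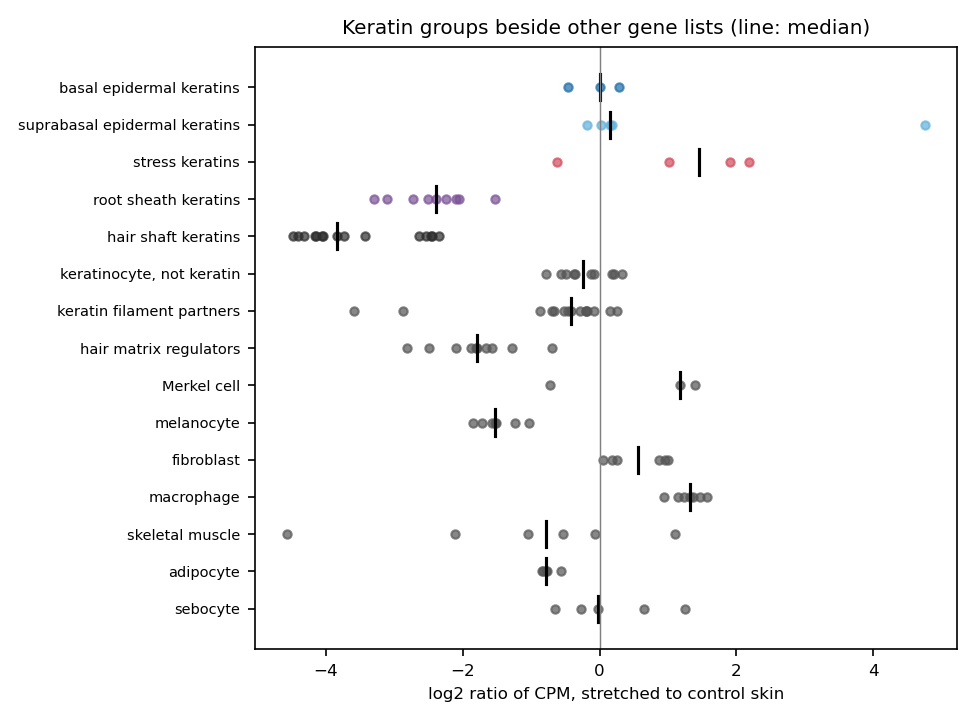
Log2 ratio of CPM, stretched to control skin, for the members (points) and the median (vertical line) of 5 keratin groups and 10 other gene lists. Hair shaft and root sheath keratins and hair matrix regulators lie wholly below 0, macrophage genes wholly above, and keratinocyte genes other than keratins on both sides.

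The stress keratins went both ways. Krt16, Krt6b and Krt6a were upregulated, and Krt17 was lower. Krt16, the type I partner of Krt6a in wounded epidermis, had 849 counts in control and 3182 in stretched skin (log2 2.19, interval 2.08 to 2.30). Krt6b had 256 and 788 counts (1.90, interval 1.70 to 2.11). Krt6a, which is also made in the companion layer and outer root sheath, had 2593 and 4318 counts (1.02, interval 0.95 to 1.09), a ratio of 2.02, close to the limit of 2. Krt17, which is made in the follicle's sheath as well as in wounded epidermis and is the most abundant of the 4, had 19209 and 10271 counts (-0.62, interval -0.66 to -0.59).

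The sum of the 4 stress keratins therefore hid the change of its members. It was 22907 counts in control and 18559 in stretched skin, a log2 ratio of -0.02 whose interval, -0.05 to 0.01, included 0, while the median over the genes was 1.46. Krt6a shares 50.8% and Krt6b 39.2% of its stretches, mostly with each other, so the split of counts between them is uncertain. Their sum, 2849 counts in control and 5106 in stretched skin, does not depend on the split between them (log2 1.12, interval 1.06 to 1.19). It can still depend on reads shared with other genes, since of the 50.8% for Krt6a only 32.7% are shared with Krt6b. Krt16 shares 28.7% of its stretches, most of them with Gm11597, and Krt17 shares none.

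The epidermal keratins differed little between the libraries. The 3 basal genes summed to 114872 counts in control and 98108 in stretched skin, or 0.812% (interval 0.807% to 0.816%) and 0.842% (0.837% to 0.847%) of the library (log2 0.05, interval 0.04 to 0.07). Krt5 had 61216 and 50601 counts, a log2 ratio of 0.01 whose interval, -0.01 to 0.02, included 0. Krt14 had 38376 and 38380 counts (0.28, interval 0.26 to 0.30). Krt15, found in basal cells and in the stem cells of the follicle bulge, had 15280 and 9127 counts (-0.46, interval -0.50 to -0.43). The basal genes thus spread from -0.46 to 0.28, and none was called.

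The 5 suprabasal genes summed to 119905 counts in control and 100414 in stretched skin, 0.847% (interval 0.842% to 0.852%) and 0.862% (0.857% to 0.867%) of the library (log2 0.02, interval 0.01 to 0.04). Krt10 had 63504 and 53008 counts (0.02, interval 0.00 to 0.04) and its partner Krt1 had 32251 and 29372 (0.15, interval 0.12 to 0.17). Krt77, a type II keratin of the spinous layers and of sweat ducts, had 23322 and 16981 counts (-0.18, interval -0.21 to -0.15). Krt78 had 815 and 764 (0.19, interval 0.04 to 0.33).

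Krt2 stood apart from the rest of the epidermal genes. It encodes a type II keratin of the uppermost living layers, made in mice chiefly in the epidermis of ear, tail and sole. It had 13 counts in control and 289 in stretched skin, 0.919 and 24.8 CPM, a ratio of 27.0 (log2 4.76, interval 3.96 to 5.68). Even in stretched skin its level was 9.49 FPKM, against 571 FPKM for Krt1. None of its stretches is shared with another gene. The control count is small, and with 0.1 in place of 1 added to the FPKM values, which changes the filter, Krt2 no longer passed it.

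**Figure D4:**
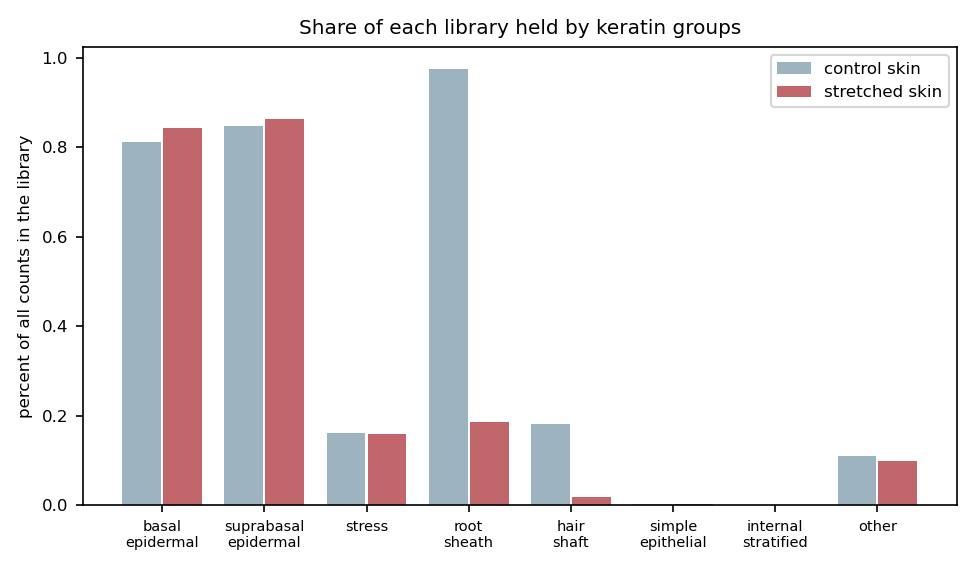
Share of all counts in the library, in percent, held by each keratin compartment in control skin (grey) and stretched skin (red), 1 library each and no error bars. The root sheath bar goes from 0.975% to 0.185% and the hair shaft bar from 0.181% to 0.0180%, while the basal and suprabasal bars stay above 0.8%.

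The keratins of simple epithelia were scarce. Krt7, Krt8, Krt18, Krt19 and Krt20 summed to 177 counts in control and 187 in stretched skin (log2 0.36, interval 0.06 to 0.66). Krt18 had 14 and 43 counts (1.90, interval 1.002 to 2.88), whereas its type II partner Krt8 had 39 and 28 (-0.20, interval -0.95 to 0.54). Krt20, a keratin of the Merkel cells that sense touch in skin, had 64 and 74 counts, and its interval (-0.01 to 0.996) included 0. Of the other Merkel cell genes, Atoh1 was at 0 in both libraries, Piezo2 had 49 and 91 counts, Isl1 had 52 and 112 and Sox2 had 18 and 9. Krt19 had 35 and 25 counts and Krt7 had 25 and 17, and both intervals included 0. Krt8 shares 23.2% of its stretches with other genes, 21.8% with the pseudogene Krt8-ps. Apart from Krt20, none of these genes passed the filter on low values.

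Krt4, a keratin of the lining of the mouth and gullet, had 16 and 9 counts, and Krt12, the keratin of the cornea, had 33 and 14. Their sum gave a log2 ratio of -0.81 (interval -1.59 to -0.07), and with TMM scaling the interval, -1.49 to 0.035, included 0. Krt12 shares 35.3% of its stretches with A830036E02Rik, and its reads cannot be assigned with certainty.

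Of the remaining 6 genes, Krt79 and Krt80 had most of the counts. Krt79, made in the follicle funnel and sebaceous duct, had 8026 and 7280 counts (0.14, interval 0.09 to 0.19). Krt80, a type II keratin of differentiating epithelium, had 5149 and 3259 (-0.38, interval -0.44 to -0.32). Krt23 had 2298 and 1005 counts (-0.91, interval -1.02 to -0.80), a ratio of 0.531 just above the limit of 0.5. Krt24 had 62 and 20 counts (-1.35, interval -2.16 to -0.60) and was the only gene outside the hair shaft and root sheath with a ratio of CPM of 0.5 or less. The intervals of Krt42 (7 and 3 counts) and Krt222 (15 and 10 counts) included 0.

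Type I and type II chains pair in the filament, so their balance was compared. As sums, both types were lower by similar amounts. Type I genes had 216626 and 125814 counts (log2 -0.50, interval -0.51 to -0.49) and type II genes 220461 and 126661 (-0.52, interval -0.53 to -0.51). The medians over genes were further apart, at -1.70 for type I and -0.55 for type II. Of the 26 type I genes 13 were downregulated and 1 upregulated, and of the 23 type II genes 9 and 3. Per length, the ratio of type I to type II FPKM over all genes was 1.36 in control and 1.47 in stretched skin, a log2 change of 0.11 (interval 0.10 to 0.13). With the longest transcript as the length the change was 0.064, and by counts, not per length, it was 0.016.

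In the root sheath the balance was level. Type I to type II FPKM was 0.911 in control and 0.899 in stretched skin, a log2 change of -0.02 whose interval, -0.06 to 0.02, included 0. The suprabasal ratio was 1.94 and 1.96 (0.02, interval -0.01 to 0.04), and the basal ratio 1.09 and 1.17 (0.10, interval 0.08 to 0.12). The exon union of Krt1 is long, so the suprabasal ratio depends on the length used, and with the longest transcript it was 1.64 and 1.63. In the stress group the ratio went from 10.9 to 4.05 (log2 change -1.43, interval -1.50 to -1.36). Of its type I genes Krt17 was lower and Krt16 higher, and its type II genes Krt6a and Krt6b were higher. In the hair shaft it went from 3.13 to 6.03 (0.95, interval 0.76 to 1.13). Krt85 is not in that ratio because it has no length, and by counts with Krt85 the hair shaft ratio was 2.34 and 3.59.

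For 8 pairs of genes known as partners, the log2 ratio of the type II gene minus that of the type I gene was compared. The pairs of the hair shaft moved together, with differences of -0.18 for Krt85 and Krt35 (interval -0.43 to 0.06) and -0.09 for Krt81 and Krt33b (interval -0.62 to 0.44), both including 0. The difference for Krt71 and Krt25 of the root sheath was -0.25 (interval -0.30 to -0.20), for Krt5 and Krt14 it was -0.27 (interval -0.30 to -0.25) and for Krt1 and Krt10 it was 0.13 (interval 0.10 to 0.15). Larger differences were found for Krt6a and Krt16 (-1.17, interval -1.30 to -1.04), Krt6b and Krt17 (2.53, interval 2.32 to 2.73) and Krt8 and Krt18 (-2.10, interval -3.21 to -0.98). In control skin Krt6a was at 1.98 times the FPKM of Krt16, and in stretched skin at 0.878 times.

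Most hair shaft genes and the inner root sheath genes lie in runs in the keratin clusters. On mm10 the type I genes other than Krt18 lie on chromosome 11 between 99232761 and 100269871 (25 genes), and the type II genes with Krt18 lie on chromosome 15 between 101347444 and 102032027 (23 genes). Krt85 had no position in the annotation used here. In the chromosome 11 cluster the root sheath genes Krt25 to Krt28 form 1 run (99315516 to 99374903) and the hair genes Krt39 to Krt36 another (99514114 to 100105626), and each gene of both runs was downregulated. Krt10, between 99385254 and 99389364, is the next keratin gene after the root sheath run, and it had a log2 ratio of 0.02 beside -2.06 for Krt28. Beyond the hair run lie Krt15, Krt19, Krt14, Krt16, Krt17 and Krt42, from -0.94 to 2.19.

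On chromosome 15 the hair run of Krt83, Krt81, Krt86, Krt84 and Krt82 (101431038 to 101550667) is followed by Krt75, and the root sheath run of Krt71, Krt74, Krt72 and Krt73 spans 101733949 to 101802346. Between them lie Krt6b, Krt6a and Krt5, with log2 ratios of 1.90, 1.02 and 0.01. Krt2, the keratin with the highest ratio, is the keratin gene next to Krt73 (101810689 to 101818169), which was at -2.10.

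**Figure D5:**
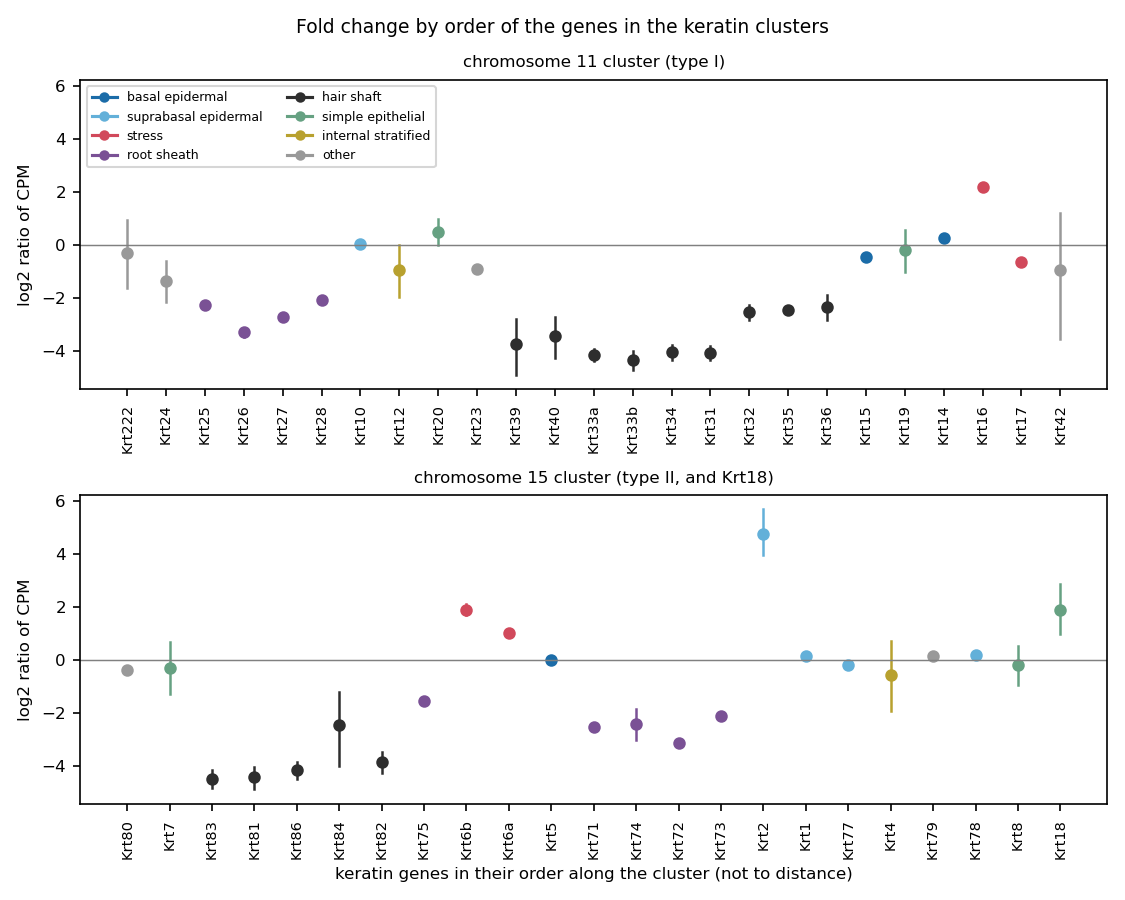
Log2 ratio of CPM, stretched to control skin, with exact 95% counting intervals as vertical lines, for the keratin genes in their order along the clusters on chromosomes 11 and 15 (spacing not to distance). Colors mark the compartments. The runs of hair shaft and root sheath genes lie below -1.5, and the epidermal and stress genes lie at -0.62 (Krt17) or higher.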

How the data were processed

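RNA-seq was made by the study from 1 library of control and 1 of stretched whole-layer mouse skin. The methods describe quality filtering of single-end 76-base reads (FASTX-Toolkit) and alignment by TopHat2 to the mm10 genome. The values deposited by the authors are raw counts per gene symbol. Which program counted, on which annotation, and how it handled strand and reads that fit several genes are not given in the sources used here. The Cufflinks FPKM values of the study were not used here.

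Ratios of CPM used the total count of each library, with a count of 3 or fewer set to 3. FPKM used the exon union of GENCODE M21, matched by name for 23375 symbols, by synonym for 668 and by hand for 4, with 374 left without a length. Shared stretches are exonic 76-base words found in another gene. Promoters came from RefSeq. Keratins were grouped by compartment, and all 49 were described, with full values for those with the most counts in their compartment and type and for those with a ratio of 2 or more either way. The members and lists were chosen with earlier results of these data known. Intervals are exact for single genes and sums and a normal approximation for differences between genes and for type I to type II ratios, and cover counting error only. The scripts were tested on simulated data. Scaling by TMM (edgeR 4.0.16) or median of ratios (DESeq2 1.42.0), totals without Krt and Krtap genes, other filters, pseudocounts and lengths, and removal of genes with 10% or more shared stretches were alternatives. Scaling to keratinocyte genes was added after seeing the data. Python 3.11.15, numpy 2.4.6, pandas 2.3.3, scipy 1.17.1, matplotlib 3.10.9 and R 4.3.3 were used.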

Additional observations from a re-analysis of the deposited data

How the results depend on the processing

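No paired analysis was possible because each condition had 1 library, and no library could be left out. TMM scaling raised every log2 ratio by 0.10, median of ratios by 0.11 and the sum of keratinocyte genes by 0.15, while totals without Krt and Krtap genes lowered it by 0.016. The summed log2 ratio of type I keratins came to -0.40 (TMM), -0.39 (median of ratios), -0.52 with totals without Krt and Krtap genes, -0.35 relative to keratinocyte genes and -0.47 without genes of 10% or more shared stretches, and that of type II keratins was -0.42, -0.41, -0.54 and -0.36 under the first 4. Basal keratins were at 0.16, 0.16, 0.037 and 0.21 under those 4 settings, and suprabasal keratins at 0.13, 0.14, 0.0086 and 0.18. The suprabasal interval with totals without Krt and Krtap genes, -0.0035 to 0.021, included 0. Root sheath keratins were at -2.30, -2.29 and -2.25 and hair shaft keratins at -3.22, -3.22 and -3.17 with TMM, median of ratios and keratinocyte genes. Without genes of shared stretches the hair shaft sum was -2.59 and its type I to type II change 1.24. The stress keratin sum was 0.080, 0.088 and 0.13 under those 3 scalings, so that its direction depended on the scaling, and -0.62 without genes of shared stretches, where the median turned from 1.46 to -0.62 because Krt17 alone was left. The sum of the 6 remaining keratins turned from -0.15 to 0.0088 relative to keratinocyte genes, with an interval that included 0. The counts of called keratins stayed between 3 and 5 up and at 21 or 22 down, Krt18 being added without the filter and Krt2 and Krt39 lost with 0.1 added to the FPKM values. Of 147 ratios of single keratins under other scalings, 35 moved beyond their counting interval. Krt5, whose interval included 0, went from 0.0061 to -0.010 with totals without Krt and Krtap genes, and no other ratio changed sign. The type I to type II change over all genes, 0.11, was 0.064 with the longest transcript and 0.15 without genes of shared stretches. The interval of the sum of Krt4 and Krt12 included 0 with TMM, median of ratios and keratinocyte genes and without genes of shared stretches. Depth limits the 5 genes of simple epithelia, whose intervals each span a log2 of 1 or more.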
